A study of Mus musculus with 4 samples.

Results

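The Reg genes encode small secreted proteins with a C-type lectin fold, several of which are made in large amounts by the intestinal epithelium. Reg1, Reg3a, Reg3b, Reg3g and Reg4 were taken by name from the gene table of the series, 5 of its 32285 genes and 5 of the 7 Reg genes it lists. Reg2 and Reg3d, the other Reg genes, had 18 and 73 UMIs over all cells kept and are not described further.

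The study counted transcripts in single cells of crypt fractions from mouse small intestine, and its design states that the epithelium was sampled before and after sleep deprivation. There were 4 libraries, 2 labelled 0D (0D-1 and 0D-2) and 2 labelled 2D (2D-1 and 2D-2), where D is not spelt out and strain, age and sex are not given. The labels name no genotype and no treatment other than the sleep deprivation, and nothing in them ties a library to an animal of its own. The p-values below therefore reflect the spread among the 4 libraries alone, and that spread may be technical. Where 4 values stand in a row, they are of the 0D pair and then of the 2D pair, each in the order of its numbers. A UMI (unique molecular identifier) stands for 1 captured transcript molecule, and levels are given as CPM, UMIs per 1000000 UMIs of the cells summed.

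Reg3b and Reg3g are antibacterial lectins that keep bacteria away from the epithelial surface, and Reg3g acts mainly on Gram-positive bacteria. Both are known to be switched on by microbial signals through MyD88 and by interleukin 22 through its receptor and the transcription factor STAT3. Reg1 was first described in regenerating pancreatic islets and is an enterocyte product in the small intestine. Reg4 is best known from enteroendocrine cells and from secretory cells of the crypt base.

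Cells were placed in classes by markers that include no Reg gene: each cell was scored for 8 marker lists and gated to a class where its best score was at least 0.5 and led the next by at least 0.25. Stem-gated cells numbered 769, 528, 344 and 393, and enterocyte-gated cells 981, 877, 662 and 391. Dividing, goblet, Paneth, enteroendocrine and tuft gates held 4757, 8471, 3419, 2533 and 1115 cells over all libraries, 59 cells were immune-gated, too few for a comparison, and 4432 were ungated. A gate is a range of a score and not a separate type: 343 cells lay within 0.1 of the limits of the stem gate and 463 within 0.1 of those of the enterocyte gate. Markers of secretory cells were counted in other gates too. Per cell, the median of the Paneth list in tuft-gated cells was 35.6, 54.6, 120 and 103 UMIs per 10000 beside 84.6, 90.5, 97.2 and 98.3 for the tuft list, and in dividing cells that of the goblet list was 5.25, 6.30, 5.89 and 96.4 beside 56.0 to 58.8 for the dividing list. In stem-gated cells Lgr5, the Wnt-amplifying receptor that defines crypt stem cells, was at 144, 114, 138 and 164 CPM, against 0.370 to 1.13 CPM in enterocyte-gated cells.

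After filtering, the libraries held 7025 to 7988 cells with medians of 9247.5 to 13340.5 UMIs per cell, and pairs of libraries shared 20 to 32 cell barcodes (0.214% to 0.342% of the smaller library). The 2D libraries differed more from each other than the 0D libraries did (root mean square difference of log2(CPM + 1) over genes of 0.330 against 0.129 in all cells). Library 2D-1 stood apart by a list of 16 interferon-stimulated genes, whose summed level in enterocyte-gated cells was 3277 CPM there and 444 to 497 CPM in the other libraries. Values of 2D-1 are therefore given beside those of 2D-2 throughout, and the part of the interferon genes in the Reg results was not tested.

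Reg1, Reg2, Reg3a, Reg3b, Reg3d and Reg3g lie within 98.2 kb of chromosome 6 (78370657 to 78468872, GRCm38, GENCODE M21 annotation), with 0 other protein-coding genes between them, and Reg4 lies on chromosome 3 (98222156 to 98236748). Their transcripts are related but distinct. Reg3b and Reg3g transcripts were 74.7% identical over the aligned bases, and no pair of the 7 Reg transcripts shared a 50-base word in the last 300 bases of 1 of them, the end that a 3′ kit reads. Reg3b (ENSMUSG00000071356) and Reg3g (ENSMUSG00000030017) face each other from the ends of the cluster, and the 250 bases before their starts were 70.0% identical over the aligned bases. The sequences before the starts of these genes are shown because the genes were higher together in the values below, and that of Reg3a (ENSMUSG00000079516), their neighbour, because it fell in enterocytes. They come from RefSeq (GRCm38.p6), read 5′ to 3′ toward the gene, leave out bases that GENCODE places in an exon, and have in capitals the STAT motif of Reg3b and the TATA box matches of Reg3g, described next.
Reg3b, chr6:78370707-78370860, plus strand: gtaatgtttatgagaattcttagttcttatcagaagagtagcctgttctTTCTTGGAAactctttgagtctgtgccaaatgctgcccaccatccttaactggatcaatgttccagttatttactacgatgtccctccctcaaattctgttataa
Reg3g, chr6:78468875-78469124, minus strand: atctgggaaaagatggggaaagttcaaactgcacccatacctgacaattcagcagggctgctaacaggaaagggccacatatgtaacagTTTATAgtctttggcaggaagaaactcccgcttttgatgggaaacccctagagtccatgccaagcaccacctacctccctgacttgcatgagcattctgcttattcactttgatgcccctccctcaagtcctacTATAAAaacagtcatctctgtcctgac
Reg3a, chr6:78380459-78380708, plus strand: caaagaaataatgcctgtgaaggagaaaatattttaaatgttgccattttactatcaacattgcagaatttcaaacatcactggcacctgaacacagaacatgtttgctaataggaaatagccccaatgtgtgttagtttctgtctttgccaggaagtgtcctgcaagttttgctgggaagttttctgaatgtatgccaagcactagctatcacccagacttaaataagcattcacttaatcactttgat

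The motifs were the STAT motif TTCNNNGAA, which is its own reverse complement, the TATA box TATAAA and an interferon motif of TTTC, 2 bases of any kind and TTTC again, the last 2 on both strands, in the 250 bases before each start. Reg3b held the STAT motif with its first base at position -129 from the start, as did Reg3d at -238, and the other 5 Reg genes held none. The motif was in 7.02% of 32851 RefSeq promoter windows of the same length. A TATA box lay at -29 in Reg3b, where its last base falls outside the stretch shown, at -27 in Reg3g and at -30 in Reg1 and Reg2, beside 12.4% of all windows, and Reg3g had a further match on the reverse strand at -161. Of the 7 Reg windows 0 held the interferon motif, which 2.98% of all windows held. These matches describe letters and not binding.

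Reg3b and Reg3g, the antibacterial lectins, were found in every class, and Reg3b was highest in enterocytes. In enterocyte-gated cells Reg3b was at 7836 and 6075 CPM in the 0D libraries and at 24469 and 13619 CPM in 2D-1 and 2D-2, respectively. Both 2D libraries lay above both 0D libraries, and 2D-1 was the higher of them. Goblet-gated cells, which secrete mucus, held 2389, 3027, 3928 and 4278 CPM of Reg3b. The enterocyte range did not overlap that of goblet cells, next in the order, whereas the ranges of all further neighbours in that order, from goblet through dividing, stem, tuft and Paneth to enteroendocrine cells (434 to 583 CPM), overlapped.

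Reg3g was spread more evenly over absorptive and secretory cells. It was at 2965, 2898, 8355 and 5116 CPM in enterocyte-gated cells, at 2289, 3798, 6015 and 4418 CPM in goblet-gated cells and at 1948, 2247, 4242 and 1453 CPM in Paneth-gated cells. In Paneth cells, the defensin-secreting cells of the crypt base, 2D-1 was the highest library and 2D-2 the lowest. No neighbours in the order of classes for Reg3g differed beyond their ranges. In enteroendocrine cells it was lowest, at 270 to 433 CPM. Of all Reg3g UMIs, 31.1% were in goblet-gated, 21.2% in enterocyte-gated and 19.5% in Paneth-gated cells, whereas 38.8% of Reg3b UMIs were in enterocyte-gated, 18.0% in goblet-gated and 5.32% in Paneth-gated cells.

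**Figure D1:**
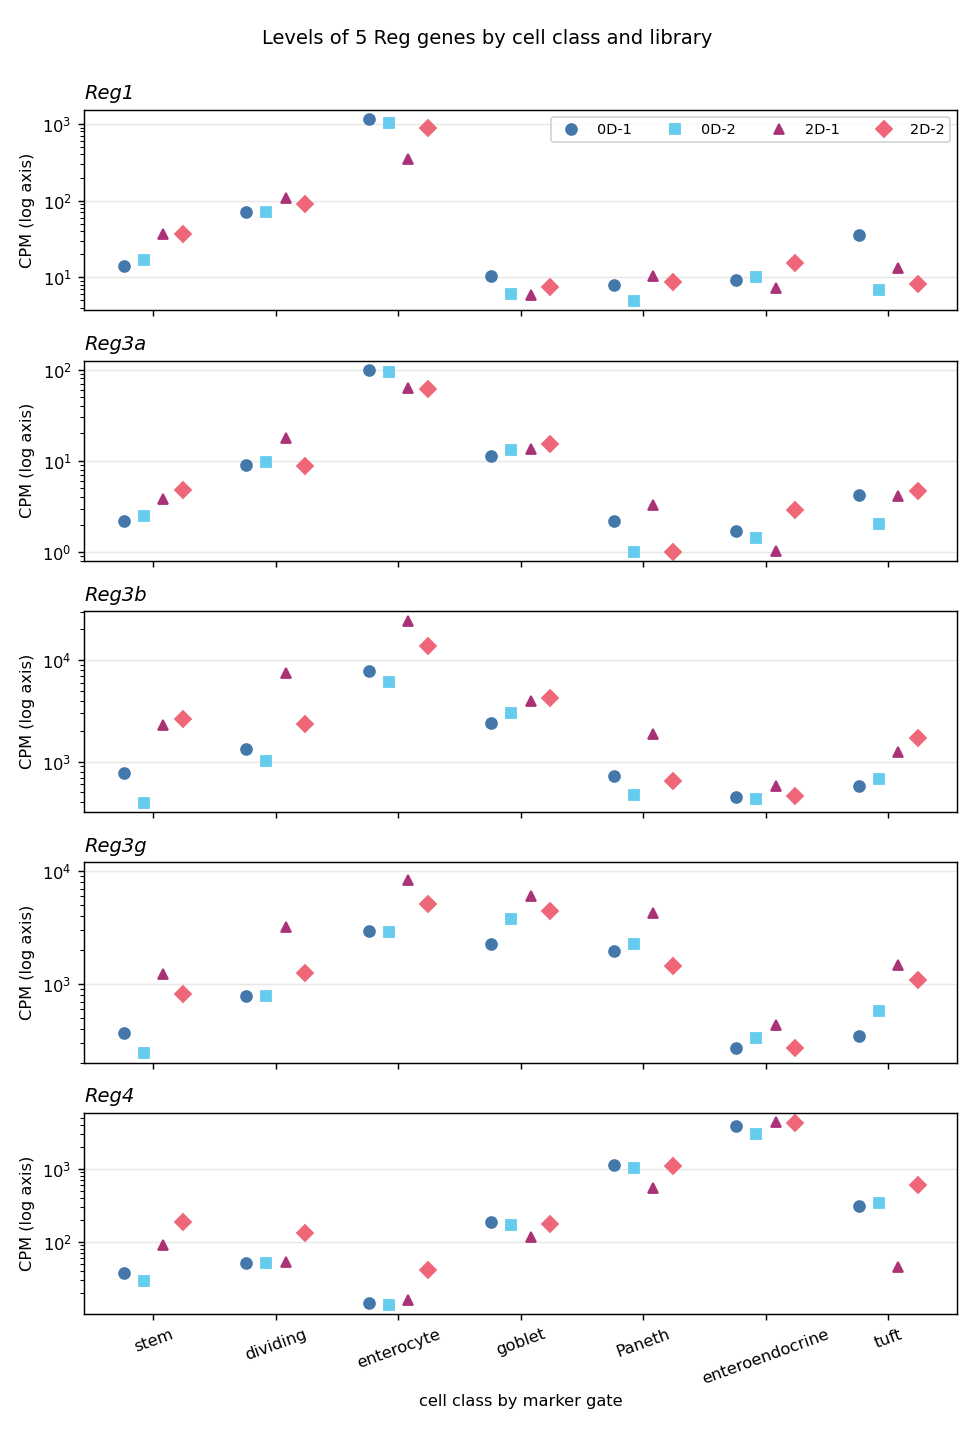
Level of each Reg gene in CPM (log axis, 1 panel per gene) in 7 marker-gated cell classes, with 1 point for each of the 4 libraries (2 of 0D in blue, 2 of 2D in red and purple). Reg1, Reg3a and Reg3b are highest in enterocytes and Reg4 in enteroendocrine cells, and in stem cells the 2D points of all 5 genes lie above the 0D points.

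The ratio of Reg3g to Reg3b UMIs differed between enterocytes, goblet cells and Paneth cells in every library. It was 0.378, 0.477, 0.341 and 0.376 in enterocyte-gated cells. In goblet-gated cells the ratio was 0.958, 1.25, 1.53 and 1.03, and in Paneth-gated cells 2.69, 4.72, 2.26 and 2.27. Stem (0.310 to 0.623) and dividing cells (0.432 to 0.769) overlapped enterocytes, tuft cells (0.610 to 1.19) overlapped goblet cells, and enteroendocrine cells lay at 0.589 to 0.774. The ranges of the 3 classes named first did not overlap, and within them the 2D libraries lay below the 0D libraries in enterocytes and Paneth cells and overlapped them in goblet cells. The ratio is used here to compare classes and is no measure of how much protein of each is made.

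**Figure D2:**
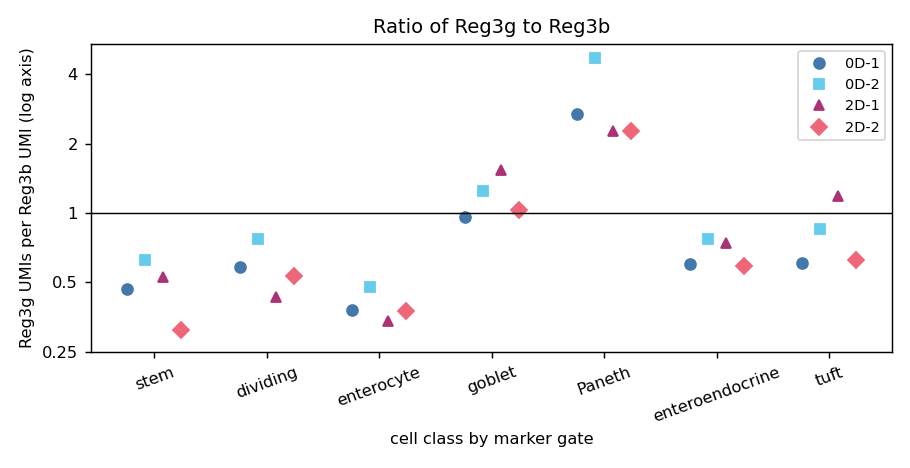
Reg3g UMIs per Reg3b UMI (log axis) in 7 marker-gated classes, 1 point per library, with a line at 1. Enterocytes lie between 0.341 and 0.477, goblet cells between 0.958 and 1.53 and Paneth cells between 2.26 and 4.72.

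Reg3b and Reg3g were higher in 2D in stem, dividing, enterocyte, goblet and tuft gates in both libraries, and 1 of these changes passed the test. In stem-gated cells Reg3g was at 367, 245, 1224 and 821 CPM, with means of 306 ± 86.3 in 0D and 1022 ± 286 in 2D (SD, n = 2). Reg3g rose there by 1.69 ± 0.22 on the log2 scale (SE; edgeR's quasi-likelihood test, adjusted p = 0.0435). Over all genes tested in the stem gate 14 of 11296 passed (0.124%), and 2 of the 5 Reg genes were among them. Reg3b was at 784, 394, 2320 and 2645 CPM in the same cells, a log2 difference of 2.02 ± 0.27 whose adjusted p of 0.0501 by edgeR missed the threshold of 0.05. The summed markers of goblet cells, a class rich in both lectins, were also higher in the stem gate of both 2D libraries, at 2458, 2631, 3185 and 5027 CPM, and those of Paneth cells were at 3677, 5448, 5171 and 11292 CPM. Their part in the stem values was not tested. Every Reg gene was higher in both 2D libraries than in both 0D libraries in stem-gated cells (5 of 5), where 29.6% of all genes tested were.

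The stem results depend on single libraries and settings. Reg3b passed with RLE scaling, DESeq2, a stricter gate and 4 of the other settings tried. These include no filter on low counts, where 540 genes were called in the stem gate against 14 with it, so that pass carries little weight. Reg3g did not pass with cells of at most 10% mitochondrial UMIs (edgeR adjusted p = 0.0541). Without 0D-1 or without 0D-2 the adjusted p for Reg3g was 0.0648 and 0.182, with changes of 2.01 and 1.42, and the whole stem gate then had 3 and 4 genes called. With Reg3b the adjusted p was 0.00225 and 0.0339 without these libraries, and leaving out 2D-1 or 2D-2 gave 1.97e-44 and 1.85e-22, as the spread is then taken from the 0D libraries alone.

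In enterocyte-gated cells Reg3b differed by 1.44 ± 0.26 and Reg3g by 1.19 ± 0.20 on the log2 scale (SE), with adjusted p of 0.0969 and 0.0791 by edgeR, so neither passed. In clusters made without the Reg genes, most enterocytes of 2D-1 lay apart from those of the other libraries: 1 enterocyte cluster held 27, 24, 828 and 19 cells of the 4 libraries, and the 2 other large ones held 628, 560, 36 and 288 and 512, 488, 39 and 144. Of the 11566 genes tested there 24 passed (0.208%), and 22.7% were higher in both 2D libraries, as Reg3b, Reg3g and Reg4 were. Without 2D-1 the differences of Reg3b and Reg3g were 0.98 and 0.81, and without 2D-2 they were 1.80 and 1.49. These fits take the spread from the 0D libraries alone. In 2D-2 both lectins were higher than in either 0D library, by a smaller amount than in 2D-1.

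In tuft-gated cells, the chemosensory cells of the epithelium, the level of Reg3g was 350, 578, 1492 and 1082 CPM and that of Reg3b 573, 678, 1256 and 1727 CPM. The differences of 1.44 ± 0.27 and 1.22 ± 0.25 (log2, SE) did not pass (edgeR adjusted p = 0.0555 and 0.0838; 0.165% of 9108 genes passed there). The markers of other cells moved with the lectins in this gate: the summed goblet markers were at 6140, 9842, 15540 and 12008 CPM and the summed Paneth markers at 3014, 7378, 16486 and 14033 CPM. Their part in the tuft values was not tested. In dividing cells the level of Reg3b was 1349, 1021, 7433 and 2354 CPM and that of Reg3g 784, 784, 3211 and 1257 CPM, differences of 2.04 ± 0.50 and 1.5 ± 0.39 (log2, SE; adjusted p = 0.367 and 0.382). No gene of the 12750 tested in dividing cells passed edgeR's test (0%), 1381 had an unadjusted p under 0.05, and DESeq2 called 87. Goblet-gated cells differed by 0.48 ± 0.32 for Reg3b and 0.63 ± 0.36 for Reg3g (adjusted p = 0.620 and 0.595), with 0 of 12335 genes called (0%), 997 at an unadjusted p under 0.05 and 29 called by DESeq2. In Paneth cells Reg3b was at 724, 476, 1881 and 640 CPM, with 2D-1 high and 2D-2 within the 0D range. Its difference there was 0.86 ± 0.39 and that of Reg3g 0.23 ± 0.38 (adjusted p = 0.756 and 0.947). In enteroendocrine cells the differences were 0.23 ± 0.11 for Reg3b and 0.20 ± 0.18 for Reg3g (adjusted p = 0.720 and 0.849).

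Over the 7 classes 33 changes of the 5 genes could be tested, since Reg3a was below the filter on low counts in enteroendocrine and tuft cells, and 3 passed. The share of all genes that passed ran from 0% in dividing, goblet and Paneth cells to 0.208% in enterocytes. Both 2D libraries lay above both 0D libraries for 4 of the 5 genes in dividing cells, where 21.3% of all genes did, for 3 of 5 in goblet cells (30.8%), for 2 of 5 in enteroendocrine cells (21.1%) and for 2 of 5 in tuft cells (22%). In Paneth cells they did for 1 of 5 (40.9%), and 0 of 5 lay below in both (6.71%). In enterocytes 2 of 5 lay below in both, as 22.2% of all genes did. The share of all genes at an unadjusted p under 0.05 was 12.7% in stem, 10.8% in dividing, 13.7% in enterocyte, 8.08% in goblet, 6.54% in Paneth, 7.14% in enteroendocrine and 7.74% in tuft cells, and 20.3% in the sums of all cells.

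The spread over cells lies behind these sums. In the enterocyte-gated cells of the 4 libraries the median cell held 25.6, 20.9, 195 and 55.7 Reg3b UMIs per 10000, and the lowest 10% of cells reached up to 0.688, 0.559, 52.9 and 2.90. In 2D-1 nearly the whole class was high, with a Reg3b UMI in 99.4% of cells thinned to 2000 UMIs, whereas in the other 3 libraries (77.0% to 89.8%) cells with little Reg3b were left. In stem-gated cells the medians were 0.834, 0.333, 9.44 and 2.07 Reg3b UMIs per 10000, and the top 10% of cells held 77.1%, 84.6%, 46.7% and 53.5% of the Reg3b UMIs. After thinning every cell to 2000 UMIs, 31.8%, 19.8%, 75.4% and 50% of stem-gated cells had a Reg3b UMI (unthinned 62.7%, 51.1%, 97.7% and 71.2%). In enteroendocrine-gated cells, the class with the least Reg3b, the thinned shares were 19.9%, 17.4%, 50.1% and 21.8%, at median depths of 4735.5 to 6534 UMIs against 9726 to 15737 in stem cells. RNA free in the suspension gives UMIs to cells that do not make a gene, and the 95% exact interval of the stem share in 0D-2 (16.4% to 23.5%) held the enteroendocrine share of that library. In thinned stem cells at least 5 Reg3b UMIs were found in 11.4%, 4.31%, 29.9% and 33.2% of cells, against 0.579% to 2.49% of enteroendocrine cells.

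**Figure D3:**
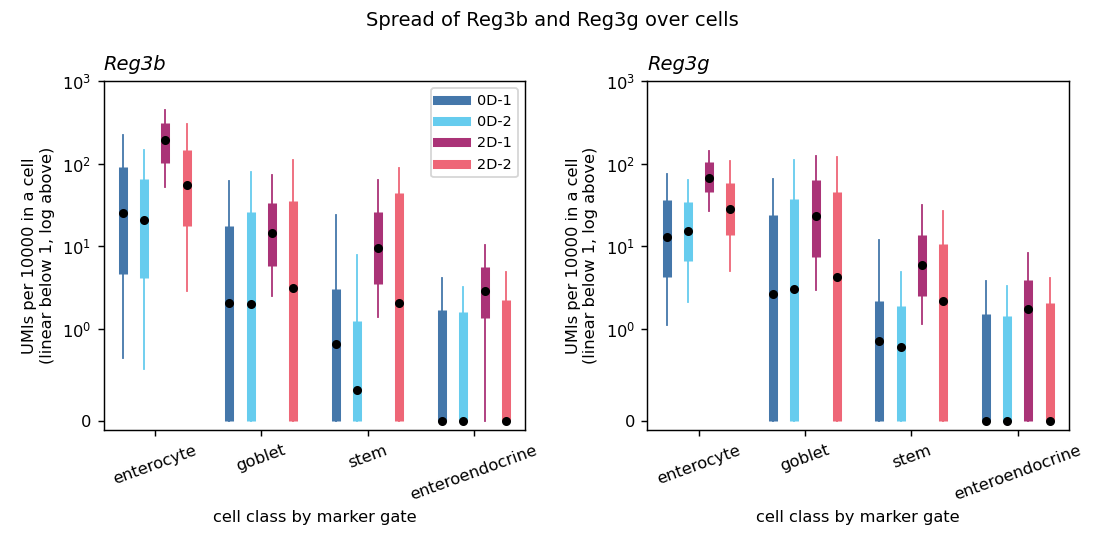
Spread over cells of Reg3b (left) and Reg3g (right), in UMIs per 10000 of a cell (linear below 1, log above), for 4 marker-gated classes and the 4 libraries. Dots are medians, and thin bars leave out the lowest 10% and the highest 10% of cells. Thick bars run from the lower to the upper quartile. The enterocytes of 2D-1 lie highest, with a Reg3b median of 195, and within each library the enteroendocrine median lies lowest of the 4 classes.

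A small set of enterocytes had the highest Reg3b level per UMI. Fabp6 encodes the bile acid binding protein of the ileum, and 104 enterocyte-gated cells (20, 9, 57 and 18) had 3 or more Fabp6 UMIs. They held 37361, 46686, 43773 and 58232 CPM of Reg3b and 12678, 18678, 17543 and 20378 CPM of Reg3g, but 139, 13.0, 94.2 and 120 CPM of Reg1. The 2574 enterocytes with 0 Fabp6 UMIs held more Reg3b UMIs in total in each library, 100807, 75194, 234037 and 51275 against 14803, 14345, 58077 and 15991. In them Reg3b was at 6702, 5161, 22701 and 10727 CPM and Reg1 at 1206, 1060, 387 and 977 CPM. The order of the libraries for Reg3b in these cells was the one seen in all enterocytes, and in the cells with Fabp6 the 0D and 2D libraries overlapped. The summed level of 6 ileal enterocyte genes in the whole enterocyte gate was 767, 1065, 1745 and 1073 CPM. The 2D libraries were the higher ones, but 2D-2 lay barely above 0D-2. Of these genes Fabp6 (228, 523, 1079 and 505 CPM), Slc51b and Fgf15 overlapped between the groups. Clec2h (305, 290, 398 and 337 CPM) and Slc10a2 were higher in both 2D libraries, and Slc51a (153, 156, 147 and 146 CPM) was lower. How far the mix of intestinal regions enters the change of the Reg genes was not tested beyond this split.

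Reg3a was highest in enterocytes and fell there in 2D. It was at 99.9 and 93.3 CPM in enterocyte-gated cells of the 0D pair and at 62.3 and 62.0 CPM in those of the 2D pair. The means were 96.6 ± 4.61 and 62.1 ± 0.200 CPM (SD, n = 2), and Reg3a fell by 0.64 ± 0.09 on the log2 scale (SE; edgeR adjusted p = 0.0419), the only one of the 24 genes called in enterocytes that was lower in 2D. Without 0D-1 or without 0D-2 the adjusted p was 0.300 and 0.118, and Reg3a also missed the threshold with Leiden classes, without the highest doublet scores, without a filter and with the stricter gate (0.0704 to 0.199). The next class in its order, goblet cells, held 11.2, 13.1, 13.4 and 15.2 CPM. Both 2D libraries were higher there, as 30.8% of all genes tested were, and the difference did not pass. Enterocytes held 67.6%, 64.7%, 42.9% and 33.9% of all Reg3a UMIs, and goblet cells 9.82%, 14.4%, 11.3% and 34.5%. Enterocytes lay above goblet cells without overlap, goblet and dividing cells overlapped, and dividing cells lay above tuft cells, which held 2.04 to 4.71 CPM. In stem cells Reg3a had 84 UMIs over all libraries, at 2.19, 2.47, 3.83 and 4.82 CPM, and its difference of 0.83 ± 0.31 did not pass (adjusted p = 0.335).

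Reg1 (ENSMUSG00000059654, chromosome 6, 78422711 to 78428667) was lower in the enterocytes of both 2D libraries and rose in stem cells. In enterocyte-gated cells it was at 1171, 1018, 348 and 875 CPM. Both 2D libraries were lower, 2D-1 by far the most, and the log2 difference of -0.84 ± 0.35 did not pass (SE; edgeR adjusted p = 0.352). Without 2D-1 it was -0.31 (adjusted p = 0.0398) and without 2D-2 it was -1.67 (3.91e-54), both with the spread of the 0D libraries alone. Enterocytes held 82.2%, 83.7%, 51.5% and 64.6% of all Reg1 UMIs, and enterocytes made up 12.9%, 12.3%, 9.42% and 4.89% of the cells. The ranges of enterocyte, dividing and stem cells, in falling order of Reg1, did not overlap, and those of the classes below them did.

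In stem-gated cells Reg1 was at 14.0, 16.7, 36.9 and 36.3 CPM. The groups did not overlap, the means were 15.4 ± 1.92 and 36.6 ± 0.445 CPM (SD, n = 2), and Reg1 rose by 1.21 ± 0.12 on the log2 scale (SE; edgeR adjusted p = 0.0225). Without 0D-1 or without 0D-2 the adjusted p was 0.180 and 0.0722, with changes of 1.08 and 1.33. After thinning to 2000 UMIs, 2.63%, 1.76%, 7.33% and 6.05% of stem-gated cells had a Reg1 UMI, beside 2.46%, 2.12%, 0.933% and 0.796% of enteroendocrine cells. The 0D stem shares lay within the exact 95% intervals of the enteroendocrine shares of the same libraries, and the 2D stem shares lay above them (enteroendocrine upper bounds of 2.02% and 1.72%). Paneth shares were 2.67%, 1.1%, 2.27% and 2.41%, and those of 2D also lay above these bounds. Goblet shares of 0.903% and 0.942% and tuft shares of 2% and 0.394% in 2D-1 and 2D-2 lay below them. The top 10% of stem-gated cells held 75.5% to 89.4% of the Reg1 UMIs. The summed markers of enterocytes, the main source of Reg1, were lower in the stem cells of 2D, at 1338, 1408, 1191 and 1004 CPM, and per cell their medians were 12.6, 13.9, 11.6 and 8.80 UMIs per 10000. The part of RNA from enterocytes, dividing cells or other classes in the stem values of Reg1 was not tested. In dividing cells Reg1 was at 71.6, 71.9, 108 and 89.7 CPM, higher in both 2D libraries but not past the test (log2 difference 0.46 ± 0.09, edgeR adjusted p = 0.343). This gate is not confined to precursors of enterocytes: its median goblet list was 5.25, 6.30, 5.89 and 96.4 UMIs per 10000. The part of this difference in 2D-2 was not tested.

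The change from 0D to 2D differed between stem and enterocyte gates for Reg1 and for Reg4. The difference of the changes, stem minus enterocyte, was 2.25 ± 0.30 for Reg1 (log2, SE; edgeR's interaction of class and group, with a term for each library, adjusted p = 0.0120). It was 1.10 ± 0.14 for Reg4 (adjusted p = 0.0111). Of 12108 genes 9 passed this test (0.0743%). For Reg3a, Reg3b and Reg3g the differences were 1.51 ± 0.29, 0.74 ± 0.25 and 0.57 ± 0.13, which did not pass (adjusted p = 0.109, 0.611 and 0.204). Reg1 passed with each library left out in turn (1.60 to 2.90). Reg4 did not pass with cells of at most 10% mitochondrial UMIs (0.91, adjusted p = 0.264), without the highest doublet scores (0.82, 0.142) or with the stricter gate (1.28, 0.316), and turned to -0.72 with classes from Leiden clusters (adjusted p = 0.328).

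**Figure D4:**
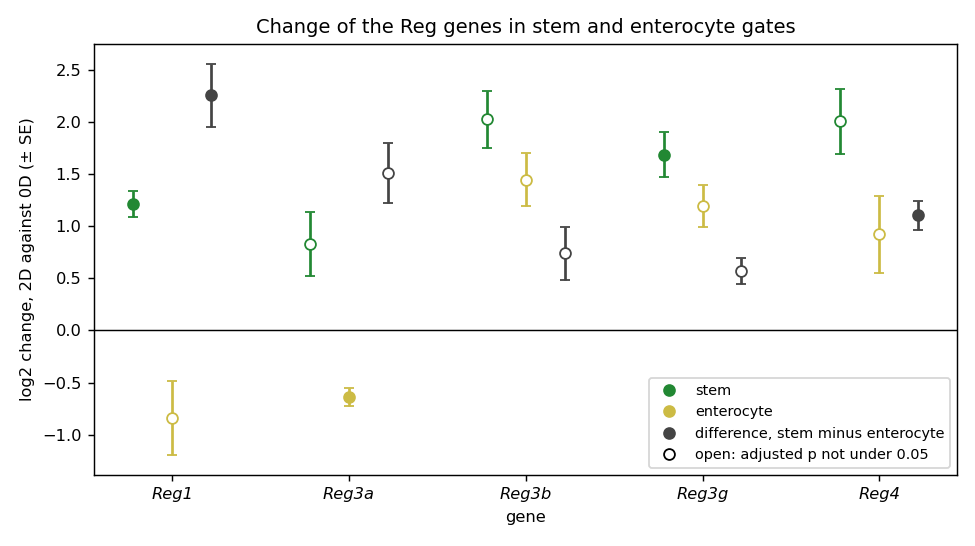
Log2 change from 0D to 2D with its standard error for the 5 Reg genes in stem-gated cells, in enterocyte-gated cells and as the difference between them, from edgeR on 2 against 2 libraries. Filled points passed an adjusted p of 0.05. Reg1 lies at 1.21 in stem cells and at -0.84 in enterocytes, and Reg3b and Reg3g lie above 0 in both.

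Reg4 (ENSMUSG00000027876) was highest in enteroendocrine cells, the class with the lowest mean of Reg3a, Reg3b and Reg3g. It was at 3849, 2972, 4336 and 4293 CPM in enteroendocrine-gated cells and at 1125, 1012, 550 and 1091 CPM in Paneth-gated cells, and these ranges did not overlap. Paneth cells were shared with Reg3g, which was above Reg4 there in every library. Paneth cells held 44.3% and enteroendocrine cells 34.2% of all Reg4 UMIs, in which the larger number of Paneth cells and their depth also count. Neither class changed past the test: the differences were 0.32 ± 0.13 in enteroendocrine cells (22 of 11688 genes passed there, 0.188%) and -0.54 ± 0.31 in Paneth cells (0 of 11368, 0%; 743 at an unadjusted p under 0.05 and 16 by DESeq2). Their adjusted p was 0.690 and 0.791 by edgeR. Goblet and tuft gates differed by -0.39 ± 0.28 and 0.01 ± 0.63 for Reg4 (adjusted p = 0.627 and 0.999), and tuft cells of 2D-1 had the least, at 306, 341, 45.1 and 603 CPM.

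Within the enteroendocrine gate Reg4 marked 1 kind of cell. Tph1 encodes the enzyme that starts serotonin synthesis and marks enterochromaffin cells. The 909 enteroendocrine cells with 3 or more Tph1 UMIs held 10082, 8451, 10711 and 9872 CPM of Reg4, and the 1485 with 0 Tph1 UMIs held 331, 186, 159 and 505 CPM. The 0D and 2D libraries overlapped in both sets. Cells without Tph1 but with 3 or more UMIs of a gene of other hormones stayed low in every library: Reg4 was at 38.6 to 241 CPM with Gcg (glucagon and GLP-1), 14.5 to 64.1 CPM with Gip, 21.0 to 180 CPM with Cck, 22.6 to 78.5 CPM with Ghrl (ghrelin) and 16.9 to 171 CPM with Sst (somatostatin). Cells with 3 or more UMIs of Neurog3, the factor of endocrine progenitors, held 11.4 to 29.8 CPM. None of these subsets reached the level of Paneth cells. In Paneth-gated cells Reg4 was at 1093, 986, 531 and 996 CPM in cells of 10000 or more UMIs and at 2172, 1694, 828 and 1853 CPM in shallower ones, and 2D-1 was the lowest library in both.

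**Figure D5:**
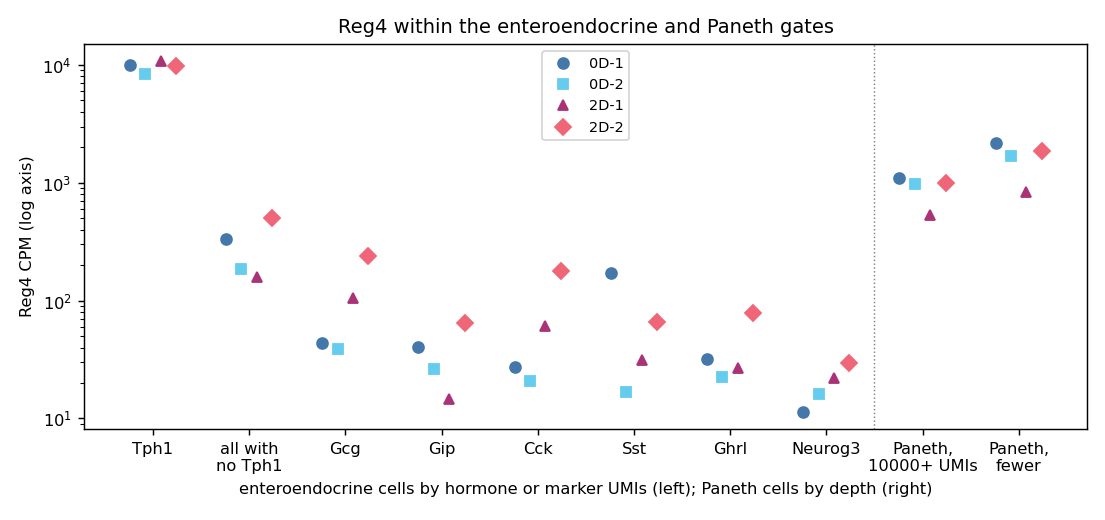
Reg4 level in CPM (log axis) in subsets of enteroendocrine-gated cells, by 3 or more UMIs of the gene named (all but the first with 0 Tph1 UMIs), and in Paneth-gated cells of 10000 or more UMIs and of fewer, 1 point per library. Cells with Tph1 lie between 8451 and 10711 CPM, and cells with other hormone genes at or below 241 CPM.

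Reg4 was also counted in stem-gated cells, at 36.9, 29.3, 89.5 and 187 CPM. Its difference of 2.00 ± 0.31 (log2, SE) did not pass (edgeR adjusted p = 0.0865). The top 10% of stem-gated cells held 94.6% to 96.8% of these UMIs, and after thinning 3.29%, 3.13%, 5.28% and 7.89% of cells had 1. Markers of the classes rich in Reg4 were also counted in the stem gate. The summed enteroendocrine markers were at 163, 176, 455 and 374 CPM, most of it from Chgb (105, 136, 336 and 295 CPM) and Chga (25.8, 11, 97.0 and 53.8 CPM). They were higher in both 2D libraries and highest in 2D-1. The summed Paneth markers, at 3677, 5448, 5171 and 11292 CPM, overlapped between 0D and 2D and, like Reg4, were highest in 2D-2. The endocrine factors Neurod1 (2.47 to 4.58 CPM) and Pax6 (0.174 to 1.17 CPM) were near 0. Per cell the median of the enteroendocrine list was 0 in each library, and that of the Paneth list was 17.7, 21.0, 26.1 and 35.4 UMIs per 10000. These medians do not describe the top 10% of cells, which held most of the Reg4 UMIs. The part of these cells' RNA in the Reg4 values was not tested. In enterocytes Reg4 was at 14.5, 13.6, 15.8 and 40.5 CPM, where the summed Paneth markers were at 1590, 1999, 3612 and 4459 CPM.

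Summed over all cells of a library, Reg1 was at 210, 178, 83.6 and 84.0 CPM, Reg3a at 21.8, 21.1, 18.0 and 11.3 CPM and Reg4 at 330, 316, 391 and 650 CPM. Reg3b had 2573, 2303, 7387 and 3147 CPM, and Reg3g had 1609, 2048, 4517 and 2440 CPM. No gene passed in these sums (0 of 15454, 0%; 3132 at an unadjusted p under 0.05 and 758 by DESeq2). The differences were -1.09 ± 0.13 for Reg1, -0.45 ± 0.17 for Reg3a, 1.19 ± 0.36 for Reg3b, 1.02 ± 0.27 for Reg3g and 0.83 ± 0.30 for Reg4 (log2, SE), with adjusted p of 0.146 to 0.233. In such sums fewer cells of a class and less RNA per cell cannot be told apart. Reg1 and Reg3a were lower in both 2D libraries, as 38.2% of all genes were, and Reg3b, Reg3g and Reg4 higher, as 16.3% were.

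Genes of cytokine signalling and of microbial sensing were read from lists. Of 9 genes of the interleukin 22 and interleukin 6 receptors and the STAT3 pathway, 0 passed edgeR's test in any class, with median log2 differences of 0.08 over the 7 tested in stem cells and 0.06 over the 8 tested in enterocytes, beside 0.0048 and 0.0045 over all genes. At an unadjusted p under 0.05 there were 1 and 2 of them, beside 12.7% and 13.7% of all genes tested in these gates. DESeq2 called 0 of them in both gates, but Stat3 in dividing cells and Stat3 and Socs3 in the sums of all cells. Stat3, the transcription factor of the pathway, had the smallest p in stem cells, at 23.1, 23.7, 35.0 and 33.3 CPM (0.50 ± 0.10, adjusted p = 0.165, edgeR). Of 11 genes of microbial sensing, a list not confined to MyD88 signalling, 1 passed in enterocytes, where 0.208% of all genes tested did. It was Tifa, an adaptor that relays bacterial sugars to NF-kB, which rose from 11.6 and 8.94 CPM to 37.0 and 29.1 CPM (1.70 ± 0.17, adjusted p = 0.0381, edgeR).

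Of 14 other defence genes that interleukin 22 or microbes induce, 0 passed in any class by edgeR. The median of the 9 tested in enterocytes was 1.35, with 8 of them above 0, 8 at an unadjusted p under 0.05 and 1, Saa1, called by DESeq2. Over all genes tested there, 13.7% had an unadjusted p under 0.05, and DESeq2 called 92 of 11566. These shares also stand beside the enterocyte counts of the lists below. The summed level of the list there was 8716, 8569, 12214 and 7829 CPM, with 2D-1 the highest library and 2D-2 the lowest. Saa1, a serum amyloid secreted by epithelium, was at 0.299, 1.23, 5.77 and 2.77 CPM there (2.58 ± 0.53, adjusted p = 0.135, edgeR). The 2 proposed Reg receptors, Extl3 and Egfr, did not pass in any class, and Extl3 had the smaller p in enterocytes (0.66 ± 0.23, adjusted p = 0.280). Of the 16 interferon-stimulated genes 0 passed edgeR or DESeq2 in enterocytes, while 15 had an unadjusted p under 0.05, and all 16 were above 0 with a median of 2.02. Their summed level there was 480, 497, 3277 and 444 CPM. It was high in 2D-1 alone, and 2D-2 lay below both 0D libraries. Of 5 proximal enterocyte genes 0 passed edgeR in enterocytes, with 3 at an unadjusted p under 0.05, and DESeq2 called Fabp1 and Lct (2 of 5). Fabp1, the liver-type fatty acid binding protein, was at 2861, 2567, 1703 and 1769 CPM (-0.65 ± 0.10, adjusted p = 0.0701, edgeR). Of 6 ileal enterocyte genes 0 passed there by either tool, and 3 had an unadjusted p under 0.05.

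Likeness was measured as Pearson's correlation of log2(CPM + 1) over the 28 sums of 7 classes in 4 libraries, among 8189 genes, as a description in which the sums of a library share its cells and depth. Reg1 was most like Ces2e (0.964), Khk (0.960) and Ugt2a3 (0.959), an esterase, the fructose kinase and a glucuronosyltransferase of enterocytes. Reg3a was most like Serpinb6a (0.957), Il18 (0.952) and Kbtbd11 (0.945). Reg3b was most like Lypd8, a secreted protein that binds flagella (0.870), Emp1 (0.870) and Bcl2l15 (0.869). Reg3g was most like Edem1 (0.803), P4hb (0.799) and Selenos (0.778), genes of protein folding and disposal in the endoplasmic reticulum. Reg4 was most like Wnt3 (0.930), the Wnt ligand of Paneth cells, Cxxc5 (0.909) and Ghr (0.892). Among the Reg genes, Reg3a and Reg3b were the most alike (0.893), and Reg4 correlated negatively with each of the others (-0.430 to -0.730).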

How the data were processed

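Transcripts of single crypt cells were counted in 4 libraries, 2 of 0D and 2 of 2D. The authors deposited raw UMI counts per gene and cell barcode, made per the submitters' processing notes with Cell Ranger 2.1.1 (build mm10), whereas the deposited matrices carry cellranger 7.0.0 per the file headers, after a 10x Genomics 3′ kit of version 2 per the labels' protocols. Whether introns were counted, which would change counts per gene, is not given in the sources used here, nor is the annotation. The 5 Reg genes, the gene lists and the tests were chosen with earlier results of these data known.

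Kept cells had 500 or more genes and a mitochondrial share of UMIs of up to 20%, whatever their doublet score. They held 93090534 to 113758758 UMIs per library. Class scores were means over markers of standardised log1p UMIs per 10000. Raw counts were summed per library and class and tested with edgeR 4.0.16 (R 4.3.3; filterByExpr, TMM, quasi-likelihood test, Benjamini-Hochberg adjustment over all genes tested, threshold 0.05). Standard errors are the log2 change divided by the square root of its F statistic. The code was tested on simulated data. Single changes are given for all 5 genes in stem, enterocyte and all-cell sums, and elsewhere for genes with a mean of at least 100 CPM. Shares of cells come from cells thinned to 2000 UMIs, with exact Clopper-Pearson 95% intervals, which cover counting error only. Named genes are the Reg genes, list members that passed or had the smallest p, and the 3 genes most like each Reg gene among those of at least 20 CPM in 1 class mean. Alternatives were RLE scaling, DESeq2 1.42.0, no filter on low counts, a replicate block, each library left out, at most 10% mitochondrial UMIs, the highest 8% of Scrublet scores left out, a stricter gate (0.75 and 0.5), classes from Leiden clusters made without Reg genes, and thinning to 1000 UMIs or none. The plots used matplotlib.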

Additional observations from a re-analysis of the deposited data

Results flagged for a closer look

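Both results below are differences between cell classes under the same contrast, tested as a class-by-group term. The change of Reg1 from 0D to 2D was larger in stem-gated than in enterocyte-gated cells by 2.25 on the log2 scale (SE 0.30, edgeR adjusted p = 0.0120), with both stem sums of 2D higher and both enterocyte sums lower. For Reg4 the difference was 1.10 (SE 0.14, edgeR adjusted p = 0.0111), with both classes higher in 2D. This Reg4 difference did not pass with at most 10% mitochondrial UMIs, with the highest doublet scores left out or with the stricter gate (adjusted p = 0.264, 0.142 and 0.316), and it was -0.72 with Leiden classes.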

How the results depend on the processing

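Over all genes, the number called by edgeR (14 in stem, 24 in enterocyte, 22 in enteroendocrine and 15 in tuft cells, 9 in the stem-minus-enterocyte test and 0 elsewhere) moved by over 1.5 times as follows. DESeq2 called 62 in stem, 87 in dividing, 92 in enterocyte, 29 in goblet, 16 in Paneth, 758 in the sums of all cells. Without a filter on low counts there were 540 in stem, 1 in dividing, 0 in enterocyte, 278 in goblet, 211 in Paneth, 240 in enteroendocrine, 144 in tuft. Classes from Leiden clusters gave 37 in stem, 37 in tuft, 67 in the stem-minus-enterocyte test. Cells of at most 10% mitochondrial UMIs gave 6 in stem, 46 in enterocyte, 2 in Paneth, 5 in tuft. Leaving out the highest doublet scores gave 4 in enterocyte, 2 in Paneth, and the stricter gate gave 2 in Paneth, 4 in the stem-minus-enterocyte test.

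The samples of the 2 groups share only a replicate number: deviations of same-numbered libraries correlated at -0.11 (tuft) to 0.158 (Paneth). The fit with the replicate block called 66 genes in stem, 141 in dividing, 67 in enterocyte, 69 in goblet, 77 in Paneth and 34 in tuft cells, and in tuft cells the crossed pairing, chosen after seeing the data, gave 138. Under the block Reg3b in stem cells was 2.1 (adjusted p = 0.00262), Reg4 in stem cells 1.92 (adjusted p = 0.00579), Reg3b in enterocytes 1.4 (adjusted p = 0.016) and Reg3g in enterocytes 1.15 (adjusted p = 0.0378), all past the threshold.

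In stem cells Reg3b also passed with DESeq2, 2.02 (adjusted p = 0.00725), Leiden classes, 2.57 (adjusted p = 0.00641), RLE scaling, 2.02 (adjusted p = 0.0488), the highest doublet scores left out, 2.16 (adjusted p = 0.04), no filter, 2.02 (adjusted p = 1.91e-114), and the stricter gate, 2.04 (adjusted p = 0.0299). Reg4 passed there with DESeq2, 2.02 (adjusted p = 0.0274), no filter, 2 (adjusted p = 1.26e-60), and the stricter gate, 1.92 (adjusted p = 0.0272). Without the filter 540 genes were called in the stem gate against 14 with it, so the passes of Reg3b and Reg4 in that setting carry little weight. Reg3g missed with at most 10% mitochondrial UMIs, 1.64 (adjusted p = 0.0541). In enterocytes Reg3a missed with Leiden classes, -0.615 (adjusted p = 0.0989), the highest doublet scores left out, -0.636 (adjusted p = 0.0704), no filter, -0.654 (adjusted p = 0.199), and the stricter gate, -0.622 (adjusted p = 0.119), and Reg3g passed with DESeq2, 1.19 (adjusted p = 0.0481). In the sums of all cells DESeq2 called Reg1, -1.1 (adjusted p = 4.17e-09), Reg3b, 1.19 (adjusted p = 0.00571), and Reg3g, 1.02 (adjusted p = 0.00332).

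For stem minus enterocyte, Leiden classes gave 1.97 (adjusted p = 0.0442) for Reg3a, 1.33 (adjusted p = 0.0363) for Reg3b and 1.1 (adjusted p = 0.00221) for Reg3g, and turned Reg4 to -0.722 (adjusted p = 0.328). Reg4 missed there with at most 10% mitochondrial UMIs, 0.909 (adjusted p = 0.264), the highest doublet scores left out, 0.822 (adjusted p = 0.142), and the stricter gate, 1.28 (adjusted p = 0.316). Reg4 in tuft cells, at 0.0077, changed sign with DESeq2 (-0.0196), at most 10% mitochondrial UMIs (-0.229), the replicate block (-0.8), the crossed block (-0.695) and the stricter gate (-0.0162). The cause of these differences was not tested. In the alternatives other than leaving out a library, 213 changes of Reg genes kept their direction and their side of the threshold, 32 newly passed, 8 no longer passed and 6 changed sign.

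With each library left out in turn the genes called ranged from 3 to 675 in stem, 0 to 1344 in dividing, 21 to 1662 in enterocyte, 28 to 5315 in goblet, 7 to 144 in Paneth, 3 to 345 in enteroendocrine, 39 to 470 in tuft, 0 to 4045 in the sums of all cells, 40 to 168 in the stem-minus-enterocyte test. Without a 2D library the spread comes from the 0D pair alone, and the lone 2D library is assumed to vary like it. In stem cells, the changes ranged from 1.08 to 1.33 for Reg1, 0.656 to 1.02 for Reg3a, 1.61 to 2.61 for Reg3b, 1.38 to 2.01 for Reg3g, 1.35 to 2.45 for Reg4. In enterocytes, the changes ranged from -1.67 to -0.314 for Reg1, -0.705 to -0.575 for Reg3a, 0.977 to 1.8 for Reg3b, 0.813 to 1.49 for Reg3g, 0.15 to 1.54 for Reg4. In the sums of all cells, the changes ranged from -1.22 to -0.962 for Reg1, -0.714 to -0.234 for Reg3a, 0.573 to 1.62 for Reg3b, 0.623 to 1.32 for Reg3g, 0.293 to 1.21 for Reg4. In the stem-minus-enterocyte test, the changes ranged from 1.6 to 2.9 for Reg1, 1.3 to 1.72 for Reg3a, 0.195 to 1.28 for Reg3b, 0.265 to 0.79 for Reg3g, 0.956 to 1.23 for Reg4. Signs turned within the ranges of Reg3b in Paneth cells (-0.0186 to 1.41), Reg3g in Paneth cells (-0.646 to 0.772), Reg3g in enteroendocrine cells (-0.156 to 0.48) and Reg4 in tuft cells (-2.89 to 0.886). Depth limits Reg3a in stem cells most, with 84 UMIs, and n = 2 a group limits every test.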
